A study of Arabidopsis thaliana with 20 samples.

Results

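Small RNAs of 21 and 22 nt from flower buds of *rst1* mutants of *Arabidopsis thaliana* were compared with those of the wild type. The comparison took the 6 *rst1* libraries and the 3 wild-type libraries, 9 of the 20 libraries of the study. The study also sequenced the exosome mutant *cer7* (5 libraries, labelled *cer7-gabi* and *cer7-sail*) and *ripr* (6 libraries, labelled *riprC* and *riprT*). By the paper, all plants were Col-0, and the *ripr* alleles hold a single base inserted with CRISPR-Cas9. The 6 *rst1* libraries were 3 of *rst1-2* and 3 of *rst1-3*. Both are T-DNA insertion alleles of *RST1* (*AT3G27670*) in the Col-0 accession, and the wild type was Col-0 itself. No transgene or second mutation was listed for these groups. By the labels, plants grew at 20 °C for 3 weeks with 12 h of light and 3 weeks with 16 h, and buds of 4 plants were pooled for a library made from 1 µg of RNA. The paper's methods give plants of 6 weeks in 16 h of light and replicates raised on separate dates. Each allele is 1 insertion line, and Col-0 lacks a functional copy of the exoribonuclease SOV, which all groups here share.

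RST1 is a large protein that together with RIPR connects the cytosolic RNA exosome with the SKI complex. The exosome degrades RNA from the 3′ end and, with the SKI complex, removes the fragments left after microRNAs (miRNAs) guide ARGONAUTE1 to cleave an mRNA. Where such RNA escapes decay, RNA-dependent RNA polymerase 6 and SGS3 can turn it into double-stranded RNA, which DICER-LIKE enzymes cut into small interfering RNAs (siRNAs) of these lengths.

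The values were raw counts of reads on 27415 annotated genes, with totals of 192747 to 296842 per *rst1* library and 203245 to 230727 per wild-type library. A test was made for the 2916 genes with enough counts over the 20 libraries, and 3987 genes had no count in any of the 9 libraries. Levels are given as CPM, the unit counts-per-million on tested genes with TMM factors, so that 1 count equals 3.52 CPM in the largest of the 9 libraries and 5.60 CPM in the smallest. A gene was called raised or lower where the adjusted p of edgeR's quasi-likelihood test was below 0.01 and the log2 fold change was beyond 1 or −1, which are the thresholds of the study. All adjusted p-values below come from that test with Benjamini-Hochberg adjustment over all tested genes. Counts of replicates differed beyond sampling, with values of chi-square over degrees of freedom from 4.20 to 10.4 between pairs. Counts on *RST1* were 1, 3 and 0 in the wild type, 1, 5 and 5 in *rst1-2* and 13, 23 and 9 in *rst1-3*, and *rst1-3* lay above the wild type (log2 fold change 3.28, SE 0.82, adjusted p = 0.0054). *RST1* did not pass between the alleles (2.23, SE 0.69, adjusted p = 0.263). Small RNA counts are not mRNA levels, so neither the labels nor the tissue could be checked with these values.

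In *rst1*, small RNAs rose on 289 genes, 9.91% of the genes tested, and fell on 19, which is 0.652%. Among the raised genes were mRNAs for transcription factors that miRNAs target and mRNAs outside the lists of known miRNA targets, such as *CRF2*, *XTH9* and *CER3*. Of the raised genes, 279 had every *rst1* library above every wild-type library, a separation that 15.8% of all tested genes showed. The call was made on the same libraries and favours such separation, so the 279 are no separate support. The median log2 fold change was 2.50 over the raised genes and 0.09 over all tested genes. The rise was between 1 and 2 on the log2 scale for 88 genes, between 2 and 3 for 99, between 3 and 4 for 55 and at least 4 for 47. In the wild type, 10 of the raised genes had no count and 59 had 1 to 3 counts summed over the 3 libraries, so their fold changes rest on few reads. With the genes at 0 set to a lower bound, the median over the raised genes was 2.49. The plot of change against level shows raised genes from the low counts near the filter up to *CRF2*, which had the highest level among them in *rst1*.

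**Figure D1:**
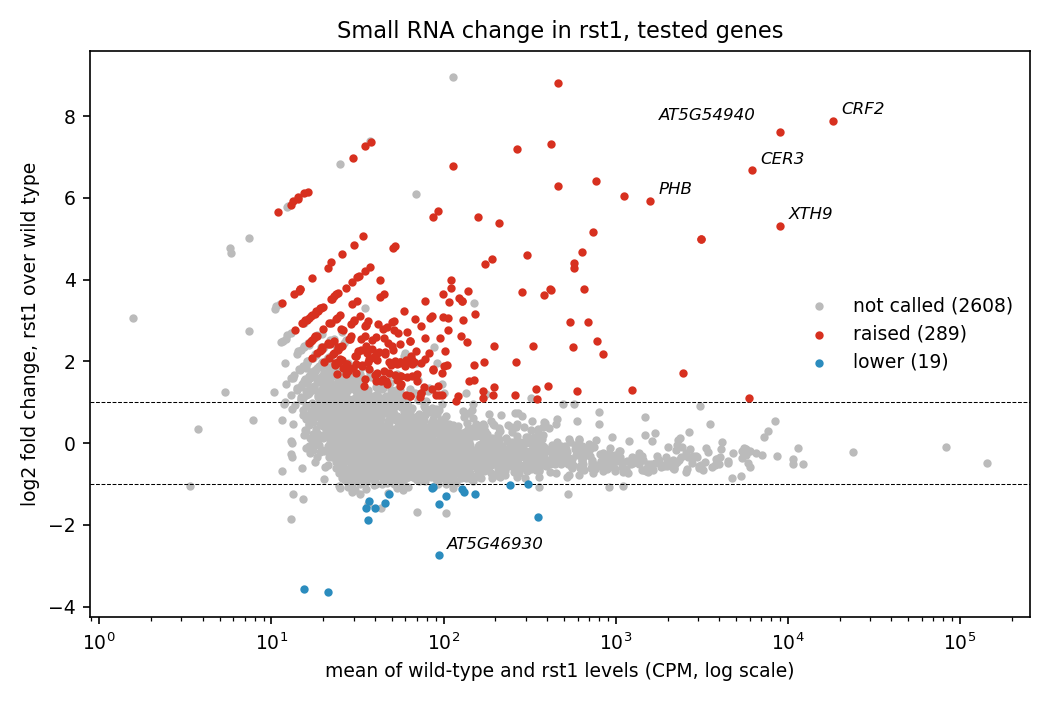
Each point is 1 of the 2916 tested genes. The x axis is the mean of the wild-type and *rst1* levels (CPM, log scale), the y axis the log2 fold change of *rst1* over wild type, and the dashed lines mark 1 and −1. The 289 raised genes lie above the upper line and reach a log2 fold change of 8.82 in *AT5G17340* and 7.89 in *CRF2*, while the most negative of the 19 lower genes is at −3.63.

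Several gene families that miRNAs cleave were among the raised genes, and their target sites are shown because the highest log2 fold changes among the targets were found on 2 of them. The sequences are from RefSeq (TAIR10.1), written 5′ to 3′, with bases 2 to 8 of the miRNA in capitals and, in each site, the bases opposite miRNA positions 10 and 11, between which ARGONAUTE1 cuts. The 3 auxin response factor mRNAs share the site of miR160, at chr2:12115741-12115761 (+) in *ARF10*, chr4:14704141-14704161 (−) in *ARF16* and chr1:29274189-29274209 (+) in *ARF17*, all in coding sequence.
miR160a: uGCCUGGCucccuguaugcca
ARF10 site: aggaatacagGGagccaggca
ARF16 site: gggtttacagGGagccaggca
ARF17 site: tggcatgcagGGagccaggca

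The 5 class III homeodomain-leucine zipper (HD-ZIP III) mRNAs carry the site of miR165 and miR166, which share a seed. In each gene an intron splits the site, so the genomic span is longer than the site itself (chr2:14642530-14642666 (−) for *PHB* and chr5:24398787-24398898 (+) for *REV*). *PHV* has the same site letters as *PHB*, and *HB-8* the same as *REV*.
miR165a: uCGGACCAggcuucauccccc
miR166a: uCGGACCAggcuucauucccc
PHB site: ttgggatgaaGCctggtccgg
REV site: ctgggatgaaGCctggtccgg
ATHB-15 site: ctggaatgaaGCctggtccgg

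Sites of other kinds are given for contrast in length and place. miR156a has 20 nt, and its site lies in the coding sequence of *SPL2* (chr5:17360758-17360777, −). The site of miR399f lies in the 5′ UTR of *PHO2* (chr2:14281884-14281904, −), and that of miR171a in the coding sequence of *HAM1* (chr2:18619128-18619148, −). miR472 has 22 nt, a length known to start secondary siRNAs, and its site lies in the resistance gene *AT5G43740* (chr5:17566541-17566562, +).
miR156a: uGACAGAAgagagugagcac
SPL2 site: gtgctctctCTcttctgtca
miR399f: uGCCAAAGgagauuugcccgg
PHO2 site: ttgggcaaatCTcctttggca
miR171a: uGAUUGAGccgcgccaauauc
HAM1 site: gatattggcgCGgctcaatca
miR472: uUUUUCCUacuccgcccauacc
AT5G43740 site: ggtatggggggAGtaggaaaaa

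The 5 HD-ZIP III genes, which set the upper side of leaves and floral organs and pattern vascular tissue, all rose, with a median log2 fold change of 4.67. *PHB* (*PHABULOSA*) had 13, 7 and 12 counts in the wild type, 794, 950 and 871 in *rst1-2*, and 600, 904 and 488 in *rst1-3*. Its level went from 50.9 ± 16.5 CPM (SD, n = 3) to 3127 ± 400.3 CPM (SD, n = 6), a log2 fold change of 5.93 (SE 0.23, adjusted p = 5.35e-19). No *rst1* library of *PHB* came near the wild type, and the alleles overlapped. *REV* (*REVOLUTA*) rose from between 6 and 11 counts in the wild type to between 211 and 492 in *rst1* (5.17, SE 0.23, adjusted p = 1.91e-17). *PHV* rose by 4.67 (SE 0.31), *ATHB-15* by 3.68 (SE 0.29) and *HB-8* by 3.65 (SE 0.56) on the log2 scale. Leaving out any 1 of the 9 libraries left all 5 genes called.

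The 3 miR160 targets, auxin response factors that repress auxin-induced genes, also rose together. *ARF10* had 5, 9 and 7 counts in the wild type, 609, 812 and 636 in *rst1-2*, and 372, 549 and 315 in *rst1-3*. The level of *ARF10* rose from 33.1 ± 8.99 CPM (SD, n = 3) to 2213 ± 472.4 CPM (SD, n = 6), and the log2 fold change was 6.04 (SE 0.28, adjusted p = 1.91e-17). The groups were far apart, and the lowest *rst1* library held 315 counts. *ARF17* rose by 3.54 (SE 0.33, adjusted p = 1.25e-09) and *ARF16* by 3.05 (SE 0.33, adjusted p = 2.27e-08), on sites that share with *ARF10* the stretch opposite the seed. These 3 calls stood with any library left out.

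Over the 16 lists of known targets of miRNAs or of trans-acting siRNAs (tasiRNAs), 52 of 88 members were tested, 34 of the tested rose and none fell. This is 65.4% of the members tested, beside 8.90% of the other 2864 tested genes (255 genes), and the median log2 fold changes were 2.08 and 0.07. The 16 lists leave out the CC-NB-LRR list of miR472 and the PPR list of miR161 and miR400. Both were filled by annotation text, whether or not a gene holds a site. By the site search given below, 4 tested genes held a site of miR472, 14 of miR161 and 6 of miR400. With both lists added, 40 of 81 tested members were raised (49.4%), which is not a share of miRNA targets alone. Members that were not tested had too few counts, so the share holds for the members with small RNAs in at least 1 line. With 1 library left out at a time, 27 to 36 members were raised, fewest without wild-type replicate 3. A raised member was found in 14 of the 15 lists with a tested member. Among the 16 is the list of *ARF* genes cut through tasiRNAs, with 3 members tested and 1 raised.

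Of the targets of single families, the NAC genes *CUC1* and *CUC2*, which set organ boundaries, both rose. *CUC2* went from 1, 5 and 2 counts to 36, 41 and 34 in *rst1-2* and 46, 42 and 14 in *rst1-3* (3.47, SE 0.47, adjusted p = 1.32e-06). *CUC1*, with 2 counts summed over the wild type, was 17.3 times higher in *rst1* (95% counting interval 4.64 to 146). *ARF6* and *ARF8*, the miR167 targets needed for flower maturation, rose by 2.97 (SE 0.26) and 1.98 (SE 0.28) on the log2 scale, and these 4 calls stood with any library left out.

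Of the 7 tested *SPL* genes, miR156 targets that drive the change of phase in shoots, 5 rose, with a median log2 fold change of 2.68 over the 7. *SPL2* had 8, 2 and 4 counts in the wild type and 37 to 57 in *rst1* (3.06, SE 0.38, adjusted p = 2.99e-07). *SPL10* rose by 2.68 (SE 0.38), *SPL9* by 2.94 (SE 0.63) and *SPL3* by 1.88 (SE 0.34) on the log2 scale, and *SPL11* was 12.8 times higher (95% counting interval 3.38 to 108). Without wild-type replicate 3, *SPL9* did not pass (2.27, adjusted p = 0.0194). *SPL4* (2.11, adjusted p = 0.016) and *SPL5* (2.41, adjusted p = 0.021) did not pass. *SPL9* is annotated to overlap a *MIR* gene, the only raised gene that does, so reads of both cannot be told apart.

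Growth regulators of leaves and petals were raised in part. The miR319 targets *TCP4* (2.96, SE 0.24, adjusted p = 4.74e-11), *TCP2* (2.38, SE 0.27) and *TCP3* (2.34, SE 0.24) rose, and *TCP4* rose from between 24 and 39 counts in the wild type to between 176 and 390 in *rst1*. *TCP10* also passed (1.17, SE 0.28, adjusted p = 0.0032), but not without wild-type replicate 1, 2 or 3 or *rst1-2* replicate 2 (adjusted p from 0.0151 to 0.0644). Of the 4 tested *GRF* genes (miR396), *GRF9* rose by 2.92 (SE 0.46) in every setting with 1 library left out. *GRF3* (1.68, SE 0.35) lost its call without wild-type replicate 2 (1.45, adjusted p = 0.0262). *GRF1* (1.56, SE 0.43, adjusted p = 0.0085) lost it without each wild-type library, *rst1-2* replicate 1 or 2 and *rst1-3* replicate 2 or 3, with adjusted p from 0.0151 to 0.0705.

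Flower and anther regulators were among the raised targets too. *AP2*, a floral homeotic gene under miR172, had 46, 51 and 49 counts in the wild type, 398, 506 and 340 in *rst1-2* and 219, 345 and 162 in *rst1-3* (2.51, SE 0.24, adjusted p = 1.53e-09). It was the only 1 raised of the 6 tested floral identity genes. *TOE2* of the same family rose by 1.80 (SE 0.33), and just missed the threshold without wild-type replicate 3 (1.28, adjusted p = 0.010). The miR159 targets *MYB33* (2.60, SE 0.53, adjusted p = 0.000495) and *MYB65* (2.90, SE 0.63, adjusted p = 0.0011), which act in anthers, rose from 5 and 4 counts at most. Both missed the threshold without wild-type replicate 3 (2.12 and 2.22, adjusted p = 0.0128 and 0.0192), and *MYB65* also without replicate 2 (2.30, adjusted p = 0.0219).

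Targets outside the developmental families rose in part. Raised were 1 of 3 tested in the list of miR162, miR168 and miR403 and 2 of 3 in that of miR394, miR395 and miR399. In the list of miR397, miR398 and miR408, 1 of 2 tested members was raised. *PHO2*, the ubiquitin-conjugating enzyme that restrains phosphate uptake and is cleaved through miR399, had 9, 15 and 12 counts in the wild type and 87 to 268 in *rst1* (3.63, SE 0.30, adjusted p = 5.68e-11). *AGO1*, the main ARGONAUTE of miRNAs and itself a target of miR168, went from 61, 70 and 62 counts to 252, 440 and 388 in *rst1-2* and 252, 475 and 236 in *rst1-3* (2.18, SE 0.23, adjusted p = 1.27e-08). Groups of both genes stood clear of each other. The F-box gene *LCR* (miR394) rose by 2.05 (SE 0.32), and the superoxide dismutase *CSD1* (miR398) by 1.99 (SE 0.50, adjusted p = 0.0043). *CSD1* did not pass without a wild-type library or without *rst1-2* replicate 2 (adjusted p from 0.0103 to 0.0578). DESeq2's Wald test did not call *CSD1* either (adjusted p = 0.0304).

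In 3 further families at most 1 tested member was raised. *HAM1*, a GRAS gene of stem cell upkeep under miR171, had 199, 350 and 174 counts in the wild type and 622 to 1159 in *rst1* (1.71, SE 0.19, adjusted p = 3.98e-08), while *HAM2* (0.77, adjusted p = 0.0015) stayed under the fold threshold. Of the 3 *ARF* genes cut through tasiRNAs, *ETT* rose by 1.91 (SE 0.33, adjusted p = 6e-05), and *ARF2* (0.74) and *ARF4* (0.02) were not called. None of the 4 tested auxin receptors of the TIR1/AFB group (miR393) was called, with log2 fold changes from −0.44 (*AFB2*) to 1.54 (*GRH1*, adjusted p = 0.035) and a median of 0.02. *AFB3* had 112 to 192 counts in the wild type and 77 to 184 in *rst1*, so its groups overlapped.

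Resistance and PPR genes, families in which some members give phased siRNAs in the wild type, were raised in a minority. Of 11 tested members of the CC-NB-LRR list of miR472, 3 rose. *AT5G43740* had 135, 121 and 200 counts in the wild type and 280 to 518 in *rst1* (1.31, SE 0.19, adjusted p = 4.05e-06). The other members raised, *AT1G58848* and *AT1G59218*, are near-identical copies whose reads the counting may split, and neither kept its call in every setting with 1 library left out: both missed it without wild-type replicate 1 or 3, *AT1G59218* also without wild-type replicate 2 and *AT1G58848* also without *rst1-3* replicate 2 (adjusted p from 0.0125 to 0.0482). Of all 32 tested NB-LRR genes, 4 rose (12.5%, beside 9.91% of all tested genes), and 2 did without wild-type replicate 1 or 3. Among the 4 was *RPP13*, a gene of resistance to downy mildew (3.08, SE 0.34, adjusted p = 3.82e-08). Of the 18 tested PPR genes, 3 rose (16.7%), and 1 did with any 1 wild-type library left out. *AT1G62914* had by far the most counts of these, 740 to 832 in the wild type and 1174 to 2627 in *rst1* (1.11, SE 0.23), and lost its call without wild-type replicate 2 (1.02, adjusted p = 0.0313) or 3 (1.01, adjusted p = 0.0168). *AT1G66345* lost its call without wild-type replicate 1 (2.84, adjusted p = 0.0101). The plot of gene classes shows the members of the main lists side by side.

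**Figure D2:**
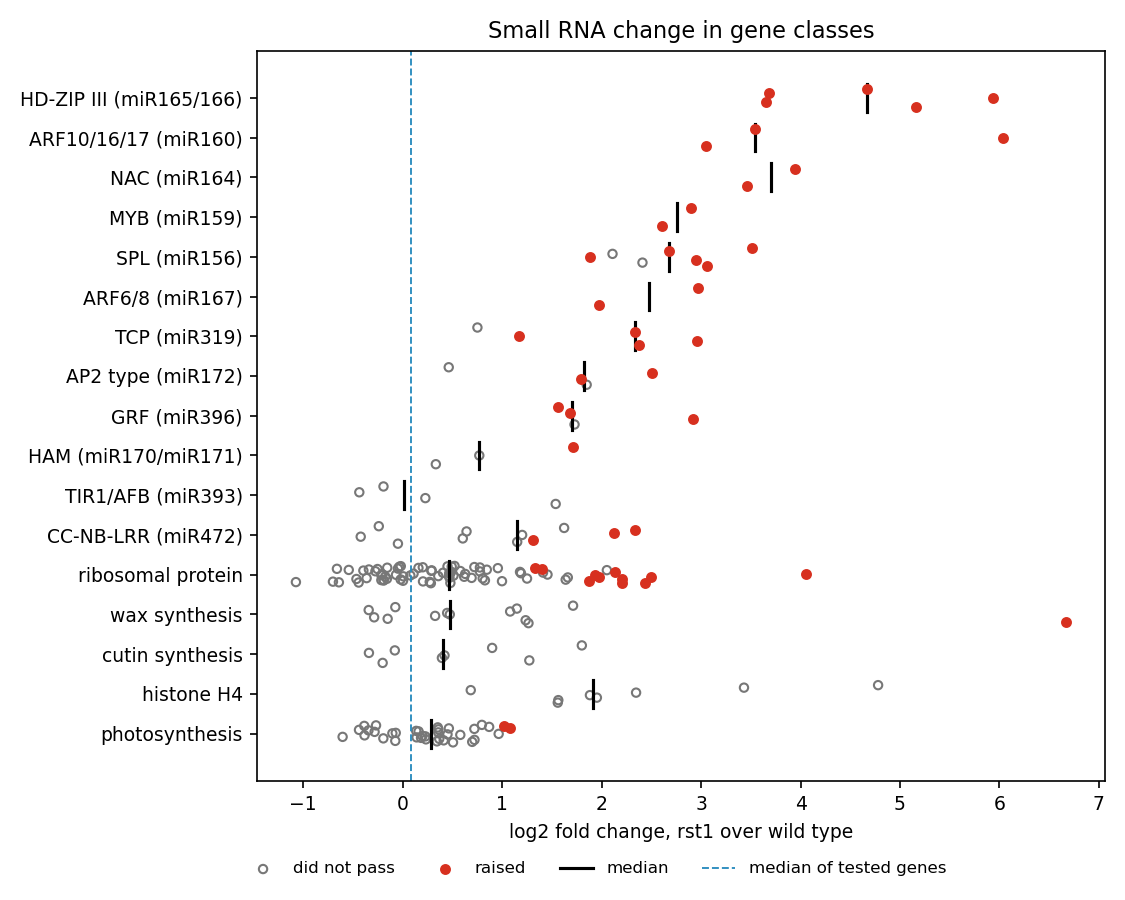
Each point is a tested member of a gene list, at its log2 fold change of *rst1* over wild type. Filled points were raised, open points did not pass, black bars are list medians and the dashed line is the median of all tested genes (0.09). The HD-ZIP III and miR160 lists lie wholly to the right, at 3.05 or above, while the photosynthesis and TIR1/AFB lists centre near the dashed line.

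Complementary sites were also searched in the transcripts of all tested genes with 350 mature miRNA sequences. A site with a penalty of at most 3 (mismatch 1, G:U pair 0.5, doubled at miRNA positions 2 to 13) was found in 42 of 284 raised genes (14.8%), in 183 of 2432 genes not called (7.52%) and in none of the 19 lower genes. Without the repeat-like miR414, miR5021 and miR5658, a step chosen after the matches were seen, these were 29 (10.2%), 76 (3.13%) and 0. In that set, sites of 21 nt miRNAs were in 26 raised genes and 59 not called, those of 20 nt miRNAs in 6 and 7, and those of 22 nt miRNAs in 1 and 8. The most sites with a raised gene were those of miR156 and of miR165 and miR166, with 5 raised genes each. *CRF2* held a site of miR5641, and no other tested gene did. Only the longest transcript was searched, and a match is not proof of cleavage.

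Most of the added small RNAs came from a few genes outside these families. The raised genes held 1.35 ± 0.0436% of counts in the wild type (SD, n = 3) and 15.3 ± 2.55% in *rst1* (SD, n = 6), where the lowest library had 11.1% and the highest 17.9%. Of the summed rise in CPM over all raised genes, 24.6% fell on *CRF2*, 12.1% on *AT5G54940*, 11.7% on *XTH9* and 8.23% on *CER3*, together 56.6%. These are shares of counts and take no account of transcript length. Reads shared by a pair of raised genes were counted for each gene, as for *SAMDC* and its upstream reading frame *AT3G02468*, with 4.01% of the rise each.

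*CRF2* (chr4:12376122-12378032, +), a cytokinin response factor of the AP2/ERF family, had 25, 33 and 39 counts in the wild type, 12793, 12286 and 9650 in *rst1-2*, and 6780, 8593 and 4095 in *rst1-3*. The level of *CRF2* rose from 152 ± 22.6 CPM (SD, n = 3) to 36318 ± 10398 CPM (SD, n = 6), a log2 fold change of 7.89 (SE 0.30, adjusted p = 1.35e-16). The groups did not overlap, and by counts every *rst1-3* library was below every *rst1-2* library, but the alleles did not pass as different. *CRF1*, its relative and the only other tested member of the list, with 1 or 2 counts in each wild-type library, rose to between 6 and 35 in *rst1* (3.57, SE 0.52, adjusted p = 4.05e-06).

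*AT5G54940* (chr5:22307982-22309453, −), a translation initiation factor of the SUI1 family, had the smallest adjusted p of all genes. Its counts were 16, 16 and 26 in the wild type, 4520, 5186 and 6315 in *rst1-2* and 3227, 3529 and 3337 in *rst1-3* (7.60, SE 0.24, adjusted p = 1.35e-21). No *rst1* library fell below 3227 counts. *AT4G27130* of the same family passed with 4 to 13 counts in *rst1* (2.44, SE 0.62, adjusted p = 0.0051), but not without wild-type replicate 2 or 3 or *rst1-2* replicate 2 (adjusted p from 0.0137 to 0.062).

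*CER3* (chr5:23420184-23424117, +), a subunit of the alkane-forming complex of cuticular wax, had 29, 23 and 23 counts in the wild type, 3314, 3728 and 2418 in *rst1-2*, and 2181, 3884 and 2275 in *rst1-3*. The level of *CER3* rose from 120 ± 24.8 CPM (SD, n = 3) to 12220 ± 2556 CPM (SD, n = 6), with log2 fold changes of 6.63 in *rst1-2* and 6.70 in *rst1-3* against the wild type, and 6.67 (SE 0.54, adjusted p = 7.4e-08) with both together. No other of the 13 tested genes of wax synthesis and export passed. *CER1*, whose product works with CER3, had 8 to 19 counts in the wild type and 10 to 20 in *rst1* (−0.07, adjusted p = 0.92), and *KCS1* had the next highest value (1.71, adjusted p = 0.063). None of the 8 tested genes of cutin synthesis passed, with a median of 0.41. *CYP86A4* (1.80, adjusted p = 0.0113) and *CYP77A6* (1.27, adjusted p = 0.0172) came nearest, with every *rst1* library above every wild-type library. With scaling by library size only, 1 of the 8 passed, and with factors from genes raised in no mutant 2 did.

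*XTH9* (chr4:1415617-1417444, +), an enzyme that cuts and rejoins xyloglucan in cell walls, had 73, 80 and 127 counts in the wild type, 4379, 5494 and 4411 in *rst1-2*, and 1612, 6136 and 3622 in *rst1-3* (5.32, SE 0.46, adjusted p = 1.73e-07). The libraries of *rst1-3* spread around those of *rst1-2*, and none overlapped the wild type. *XTH9* was the only raised member of the 7 tested *XTH* genes. *SAMDC* (chr3:508886-511561, +), which makes the aminopropyl donor of polyamines, had 34 to 46 counts in the wild type and 745, 2962 and 830 in *rst1-2*, and 551, 3578 and 586 in *rst1-3* (4.99, SE 0.81, adjusted p = 0.000275). In both alleles replicate 2 of *SAMDC* was high, 3.39 times the mean of the other replicates in *rst1-2* and 5.09 times in *rst1-3*, and 0.79 times in the wild type. Only 4 raised genes were over 2 times higher in replicate 2 of both alleles, and 1 of them is the upstream reading frame of *SAMDC*, which shares its reads. In the labels, replicates 1, 2 and 3 of the genotypes carry the series numbers 1, 2 and 4, and by the study's methods replicates were grown at separate dates and in separate chambers. Whether replicate 2 of both alleles shared a date is not stated, and its part in these values was not tested. With the replicate number as a block, *SAMDC* was raised too (4.67, SE 0.72, adjusted p = 0.000271).

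**Figure D3:**
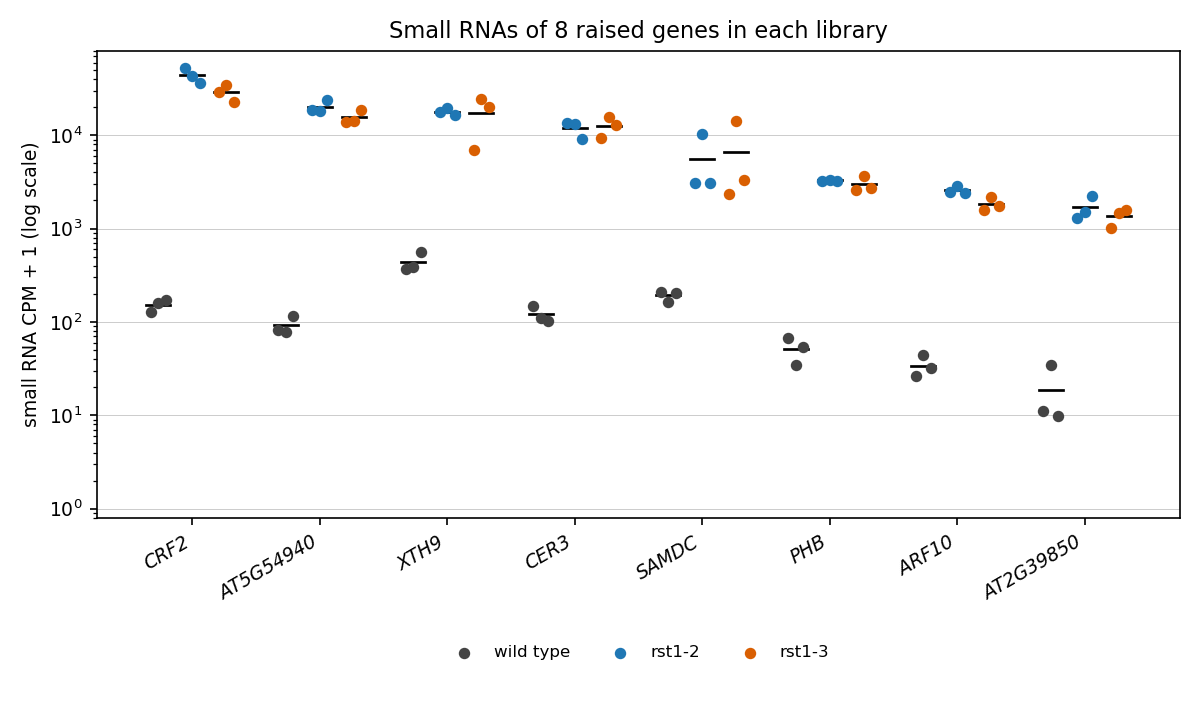
Small RNA levels (CPM plus 1, log scale) of 8 raised genes in each library of wild type, *rst1-2* and *rst1-3*, with bars at the group means. All *rst1* points lie more than 10 times above the wild type, and replicate 2 stands apart from the others for *SAMDC* in both alleles.

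High folds were also found on genes with almost no small RNAs in the wild type. *AT5G17340*, a putative membrane lipoprotein, had 1, 0 and 0 counts in the wild type and 242, 250 and 307 in *rst1-2* and 202, 162 and 183 in *rst1-3*, a ratio of 583 (95% counting interval 104 to 23051, adjusted p = 3.85e-13). It overlaps *AT5G17345*, so the reads may belong to either. *STP2*, a sugar transporter, went from 1, 0 and 2 counts to 103 to 250 (ratio 171, interval 58.3 to 830). Intervals of this kind cover counting error only.

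For raised genes at 0 in the wild type only a lower bound can be given, set with 3 counts over the wild-type group. *PAP6*, a purple acid phosphatase, had 12 to 24 counts in each *rst1* library and was at least 15.7-fold higher, and *PAP14* of the same family was at least 12.0-fold higher, with 7 to 19 counts. *AT1G54400*, of the HSP20-like chaperones, was also at 0. *MAPKKK14* (at least 6.79-fold), *RLP57* (at least 6.64-fold) and *AT1G01990* (at least 5.92-fold) kept their calls with any library left out.

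*MT1C*, *AT5G18040* and *NIP5;1*, also at 0 in the wild type, lost theirs without any 1 of the wild-type libraries (adjusted p from 0.0176 to 0.0469). *AT5G18040* also lost it without *rst1-3* replicate 2 (adjusted p = 0.0102), *MT1C* without *rst1-2* replicate 2 (0.0101), and *NIP5;1* without *rst1-2* replicate 1 or 2 or *rst1-3* replicate 2 (0.0126 to 0.0245). Of genes with more counts, *AT2G39850*, a subtilisin-like protease, rose from 2, 7 and 2 counts to 235 to 602 (6.41, SE 0.44, adjusted p = 1.17e-10). *SAG20*, a gene of senescence, rose from 10 to 13 counts to 171 to 355 (4.28, SE 0.26, adjusted p = 3.27e-14), and its groups did not overlap.

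Housekeeping classes showed smaller and less regular changes. Of 80 tested genes with a ribosomal protein annotation, 11 rose (13.8%, beside 9.91% of all tested genes), with a median log2 fold change of 0.47, and with 1 library left out 4 to 9 did. *AT5G15200*, a protein of the small subunit, had 7, 11 and 9 counts in the wild type and 28 to 52 in *rst1* (1.88, SE 0.26, adjusted p = 1.82e-06). *AT3G11120* of the L41 family was 18.8 times higher (95% counting interval 5.06 to 158), and *AT3G60770* rose by 2.49 (SE 0.35). The list also holds *LOS1*, an elongation factor that is no ribosomal protein (1.33, SE 0.22, adjusted p = 3.68e-05). Of 36 tested photosynthesis genes 2 passed, *CAB1* (1.08, SE 0.21) and *LHCB6* (1.02, SE 0.25), and both fell short of a threshold without wild-type replicate 2 or 3 (*CAB1* at 0.96 and 0.93, *LHCB6* with adjusted p = 0.0218 and 0.0435). *LHCB6* also did without wild-type replicate 1 (0.97), *rst1-2* replicate 2 (0.98) or *rst1-3* replicate 1 (0.89).

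None of the 8 tested histone H4 genes passed, though all 8 had positive log2 fold changes, with a median of 1.92, or 1.72 with the gene at 0 in the wild type set to its bound. *AT1G07820* had 3, 7 and 6 counts in the wild type and 53 to 82 in *rst1* (3.43, adjusted p = 0.0218), and passed without robust moderation of the spread (adjusted p = 0.0039). *ERD14*, a dehydrin, also missed the threshold (2.36, adjusted p = 0.0138) and passed without robust moderation (0.0034), and its groups overlapped. None of the 10 tested aquaporin genes of the list, in which *NIP5;1* does not stand, the 12 of tubulin and actin and the 3 of translation elongation, a list without *LOS1*, passed.

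The raised genes were spread over the genome and had a longer median transcript than the genes not called. The share raised was 9.85% of tested genes on chromosome 1, 9.94% on 2, 9.23% on 3, 10.04% on 4 and 12.4% on 5. The median transcript length was 1980.5 bases for 284 raised genes and 1592 for 2432 genes not called, and the median exon number 4 and 3. Genes with a single exon made up 20.1% and 20.8%. An annotated overlap with another gene was found for 100 raised genes. The share of all tested genes with an overlap was not counted, so the 100 cannot be read as a trait of raised genes. By overlap or by near-equal counts of neighbours, 12 pairs of raised genes shared reads, which leaves 277 loci. The use of strand in counting is not given in the sources used here, so reads of overlapping genes cannot be told apart.

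The 19 lower genes shared no list. *AT5G46930*, of the invertase and pectin methylesterase inhibitors, fell from 27, 35 and 42 counts to 5, 6 and 6 in *rst1-2* and 9, 4 and 5 in *rst1-3* (−2.74, SE 0.32, adjusted p = 1.05e-07). *AT4G05470* fell from 99, 129 and 120 counts to 39, 52 and 51 in *rst1-2* and 30, 31 and 27 in *rst1-3* (−1.81, SE 0.21, adjusted p = 8.64e-08). Groups of both were apart, as for 18 of the 19, beside 7% of all tested genes, and here too the call favours such separation. *AT2G23834* had 6, 11 and 8 counts in the wild type and at most 2 in *rst1* (−3.63, SE 0.72, adjusted p = 0.000423). *AT5G21125* had 3, 2 and 14 counts in the wild type and at most 1 in *rst1* (−3.58, SE 0.74, adjusted p = 0.000586), and without wild-type replicate 3, the highest, it did not pass (−2.43, adjusted p = 0.0631).

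Each allele was set against the wild type they share, and the alleles against each other. Tested alone, 241 genes were raised in *rst1-2* (7.24% of 3329) and 225 in *rst1-3* (6.76%), while 20 (0.601%) and 13 (0.391%) were lower. Of the 289 genes raised in *rst1*, 215 were raised in *rst1-2* alone, 213 in *rst1-3* alone and 176 in both, and 284 had log2 fold changes above 1 in both. None of the 289 was called different between the alleles. The 289 were called with the alleles pooled, which favours genes alike in both, so these counts do not test their likeness. Over all genes, 8 of 3329 differed (0.24%), 7 of them lower in *rst1-3* (0.21%) and 1 higher (0.03%).

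At 2 genes 1 allele was at 0. *AT3G44510*, an alpha/beta hydrolase, had 14, 25 and 29 counts in the wild type and 39, 43 and 39 in *rst1-2*, but 0 in all 3 libraries of *rst1-3*, where it was at least 33.6-fold lower than in *rst1-2* (adjusted p = 4.48e-07) and at least 23.8-fold lower than in the wild type. *AT5G40020*, a thaumatin-like gene, had 22, 34 and 24 counts in *rst1-2* and none in the wild type or *rst1-3*, so it was at least 22.2-fold higher in *rst1-2* than in *rst1-3* (adjusted p = 3.27e-05). Both calls stood with any library left out.

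The other genes that differed between the alleles had counts in both. *AT1G33950*, of the AIG1 family, was lower in *rst1-2* (83, 59 and 62 counts) than in *rst1-3* (237, 203 and 167), which overlapped the wild type (234, 317 and 226), and differed by 1.80 (SE 0.21, adjusted p = 9.07e-07). *XTH26* had 19, 34 and 38 counts in *rst1-2*, 4, 5 and 1 in *rst1-3* and at most 2 in the wild type, and differed by −2.91 (SE 0.48, adjusted p = 0.000617). *AT1G14780*, which overlaps the RNA polymerase gene *RDR1* (*AT1G14790*), was at 0 in the wild type, with 41, 113 and 180 in *rst1-2* and 14, 6 and 6 in *rst1-3* (−3.42, SE 0.49, adjusted p = 0.000967), and did not pass without *rst1-3* replicate 2 or 3.

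*LCR26* (−2.37, adjusted p = 0.000753) did not pass without *rst1-3* replicate 2, *MLO9* (−2.80, adjusted p = 0.0083) in 6 of the 9 settings with 1 library left out and *PEN2* (−1.79, adjusted p = 0.0097) in 8 of them. For *MLO9* those were wild-type replicate 1, *rst1-2* replicates 1 and 3 and each *rst1-3* library, and for *PEN2* every library but *rst1-3* replicate 3. With the alleles together none of the 8 genes passed in the main edgeR fit. Tested alone, *AT1G14780* (9.83 and 6.41) and *LCR26* (6.80 and 4.43) were raised in both alleles, *PEN2*, *XTH26* and *AT5G40020* in *rst1-2*, while *AT1G33950* was lower in *rst1-2* and *AT3G44510* in *rst1-3*. With the alleles together, DESeq2 called *AT1G14780*, *PEN2*, *XTH26* and *LCR26* raised (adjusted p from 0.000337 to 0.00562), and *AT1G14780* passed in edgeR without robust moderation (0.00161). Without a filter on low counts, edgeR called *PEN2* (0.000353) and *XTH26* (5.19e-05) raised and *AT1G33950* lower (−1.14, 0.00027). *PEN2* also passed in edgeR with the mean count filter (0.00746) and with scaling by genes raised in no mutant (0.00556). *PEN2* passed too without *rst1-3* replicate 1 (0.00334) or 2 (0.000915), and *XTH26* without *rst1-3* replicate 3 (0.0061). The plot of the genes that differed between the alleles gives each library.

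**Figure D4:**
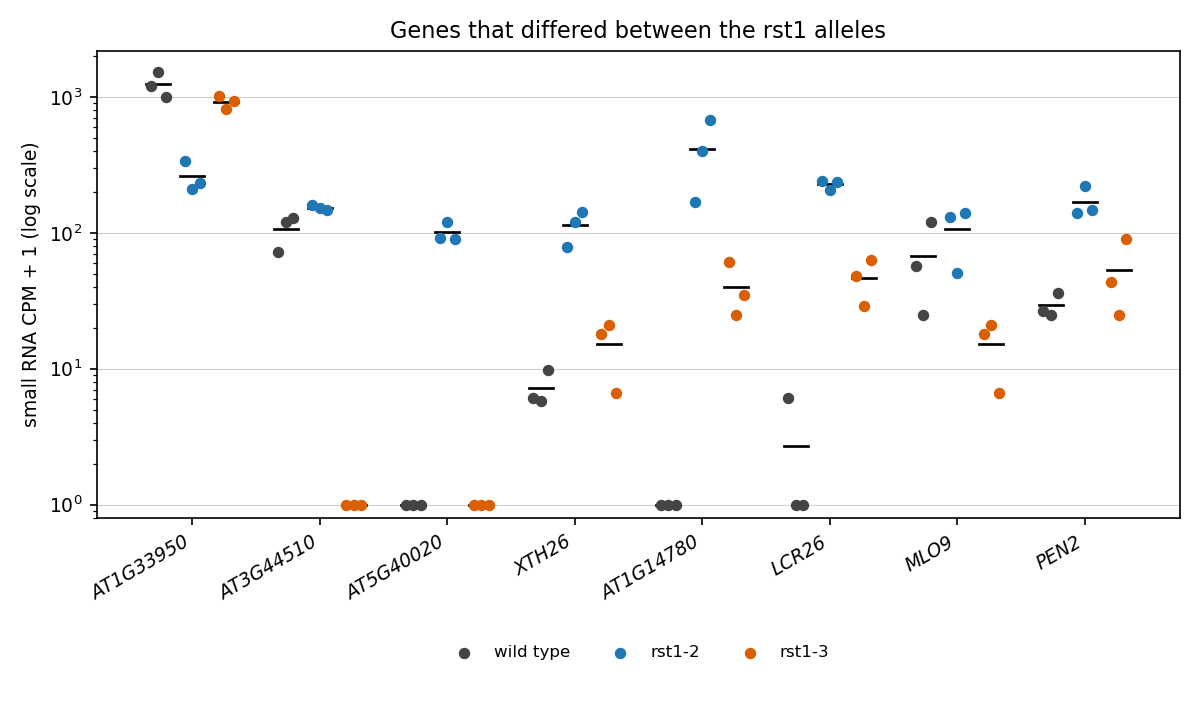
Small RNA levels (CPM plus 1, log scale) in each library for the 8 genes that differed between *rst1-3* and *rst1-2*, with bars at the group means. For *AT3G44510* the 3 *rst1-3* libraries are at 0 (drawn at 1), and for *AT1G33950* the *rst1-2* libraries, at 208 to 339 CPM, lie below all other libraries drawn.

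Where *rst1* stood among the exosome-linked mutants was tested on the levels of *rst1* against those of *cer7* and of *ripr*. Between *rst1* and *ripr*, 11 genes were higher in *rst1* (0.377% of tested genes) and 3 lower (0.103%), and of the 289 raised genes 5 were higher and none lower. Between *rst1* and *cer7*, 7 genes were higher (0.24%) and 61 lower (2.09%), and of the raised genes 1 was higher and 17 lower.

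The 5 genes higher in *rst1* than in *ripr* were near the wild-type level in *ripr*. *AT3G09960*, a calcineurin-like phosphoesterase, had 33 to 75 counts in *rst1*, 38 to 67 in *cer7*, 0 to 2 in *ripr* and, in the wild-type libraries, 0, 1 and 0, and *rst1* exceeded *ripr* by 6.70 (SE 0.38, adjusted p = 4.84e-14). *AT5G44770*, with a C1 domain, had 46 to 234 counts in *rst1* and 0 to 2 in *ripr* (7.31, SE 0.88, adjusted p = 8.96e-05). The libraries of *cer7* divided by allele, with 104, 133 and 190 counts in *cer7-gabi* and 15 and 5 in *cer7-sail*.

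*AT1G28000*, a PPR gene, had 101 to 192 counts in *rst1* and 3 to 14 in *ripr* (4.40, SE 0.75, adjusted p = 0.0041). Within *cer7* it had 6, 12 and 12 counts in *cer7-gabi* and 112 and 115 in *cer7-sail*. Its call against the wild type (4.60, SE 1.08, adjusted p = 0.0057) was lost without wild-type replicate 1 (adjusted p = 0.0206), 2 (0.0388) or 3 (0.0339). *MEE65* (2.86, SE 0.51, adjusted p = 0.000818) and *AT3G03620* (2.23, SE 0.28, adjusted p = 3.04e-06), named here because they complete the 5, had 3 and 6 counts at most in *ripr*, and 6 to 11 and 14 to 30 in *rst1*.

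The raised gene higher in *rst1* than in *cer7* was *ARF10*, with 231 to 295 counts in *cer7* and 315 to 812 in *rst1*, a difference of 1.31 (adjusted p = 5.80e-07). *XTH9* was lower in *rst1* by 3.68 on the log2 scale (adjusted p = 5.51e-07), as its level was 17581 CPM in *rst1*, 225901 CPM in *cer7* and 33911 CPM in *ripr*. *REV*, too, was lower in *rst1* than in *cer7*, by 1.56 (adjusted p = 1.13e-09), while it did not differ from *ripr* by the test (adjusted p = 0.40). Among the lower genes, *AT5G21125* was at 0 or 1 count in *rst1* and had 34 to 60 counts in *cer7* and 21 to 71 in *ripr*, a difference of −5.76 against *cer7* (adjusted p = 1.13e-09) and −5.78 against *ripr* (adjusted p = 1.22e-09).

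**Figure D5:**
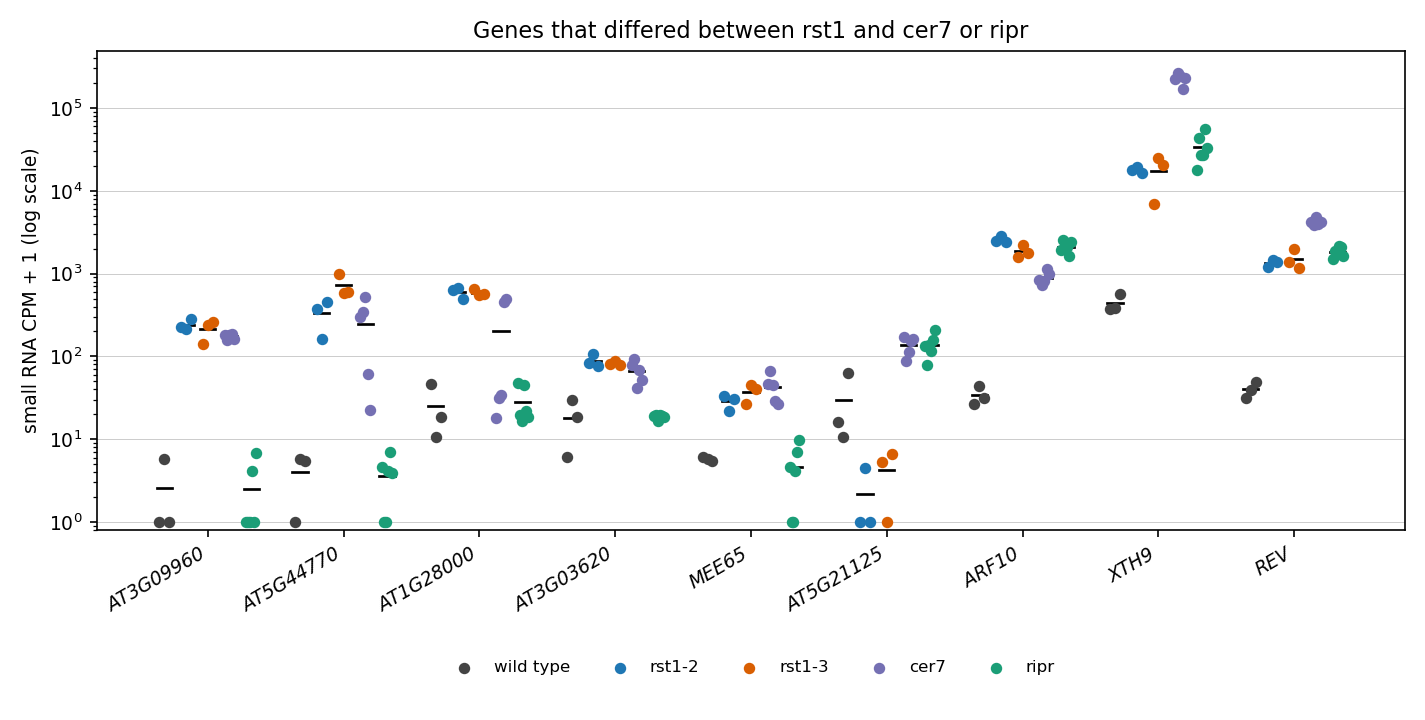
Small RNA levels (CPM plus 1, log scale) in all 20 libraries for 9 genes that differed between *rst1* and *cer7* or *ripr*, with bars at the group means. *AT3G09960* and *AT5G44770* are high in *rst1* and near the wild type in *ripr*, and *AT5G21125* is at 0 or 1 count in every *rst1* library.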

How the data were processed

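Small RNA reads were trimmed by the authors with cutadapt (1.18) and aligned without mismatches to TAIR10 with ShortStack in unique mode. The deposited table holds raw counts of reads of 21 and 22 nt per gene and library, neither normalized nor pooled, and 0 columns of per-sample values were left out. The tool and strand setting of the counting are not given in the sources used here. Totals of 1 length class on genes are not the depth of a library.

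The labels gave the groups. Counts of all 20 libraries were fitted in 4 groups (7 for the alleles) with edgeR (4.0.16, R 4.3.3, limma 3.58.1): filterByExpr (minimum count 10, minimum total 15), TMM, glmQLFit with robust moderation and glmQLFTest, with Benjamini-Hochberg adjustment. Robust moderation was not part of the written design and was switched on after results without it had been seen, to follow an earlier analysis of these data. DESeq2 (1.42.0) was an alternative. The procedure was tested on simulated counts. SE is the log2 fold change divided by the root of F. Folds against a wild type at 0 use 3 counts over the group, and those against 1 to 3 counts a 95% interval.

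The libraries, gene lists and tests were chosen with earlier results of these data known. Named genes were *CER3*, *RST1*, *CER7* and *RIPR* (the last 2 had too few counts), the 25 raised genes with the largest change and the 10 lower genes with the largest fall (both only where the groups were apart), the 10 raised genes with the smallest adjusted p, up to 4 members of each list and the genes that differed between alleles. Positions and symbols are from TAIR10.1, which held 26718 of the 27415 identifiers. Members of lists and loci in the comparisons with *cer7* and *ripr* that are outside this rule were chosen after their values were seen.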

Additional observations from a re-analysis of the deposited data

Results flagged for a closer look

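In 5 of the 103 named genes, 1 *rst1* library stood apart from the other 5 by Dixon's test (its gap to the nearest library over the range of the 6), and chance marks about 1 group in 20. The highest library was *rst1-3* replicate 3 for *AT5G18600*, a thioredoxin-like gene (315 counts, others 172 to 226, gap over range of the CPM values 0.853). It was *rst1-3* replicate 2 for *AT5G22090* (263 counts, others 35 to 140, 0.638), for *REV* (0.650) and for *LCR* (0.675). The lowest was *rst1-2* replicate 3 for *SPL2* (0.699). *REV*, *LCR*, *SPL2* and *AT5G18600* were raised with any library left out. *AT5G22090* was not without wild-type replicate 1, 2 or 3 or *rst1-2* replicate 2 (adjusted p from 0.011 to 0.0451).

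The alleles differed at 8 genes by the test of *rst1-3* against *rst1-2* (log2 difference −3.42 for *AT1G14780*, 1.80 for *AT1G33950*, −2.80 for *MLO9*, −1.79 for *PEN2*, −8.38 for *AT3G44510*, −2.91 for *XTH26*, −2.37 for *LCR26* and −7.78 for *AT5G40020*). For *AT3G44510* and *AT5G40020* *rst1-3* was at 0, so these fitted values depend on the prior count, and the lower bounds are those of 33.6-fold and 22.2-fold.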

How the results depend on the processing

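The main counts were 289 raised and 19 lower. DESeq2's Wald test gave 216 and 16, of which 208 and 16 were also called by edgeR, and glmTreat, which tests against the fold threshold itself, 118 and 4. By DESeq2, *CSD1* (adjusted p = 0.0304), *GRF1* (0.0247), *AT4G27130* (0.0168), *AT1G66345* (0.0138) and *AT1G58848* (0.0125) did not pass. With only *rst1-2* or only *rst1-3* as *rst1*, edgeR called neither *CSD1* (adjusted p = 0.0165 and 0.0131) nor *GRF1* (0.0343 and 0.0153). *AT4G27130* did not pass with only *rst1-2* (0.0301), nor *AT1G58848* with only *rst1-3* (0.0143). A threshold of 0.05 gave 458 raised. Scaling by factors from genes raised in no mutant gave 332 raised and 9 lower and moved the median log2 fold change of all genes from 0.09 to 0.22. Lower genes numbered 10 where genes under a mean count of 10 were left out, 9 in a fit of the 9 libraries alone and 11 with *rst1-3* alone as *rst1*. Leaving out 1 library gave 175 to 299 raised and 9 to 26 lower, fewest raised without wild-type replicate 2 (175), 3 (186) or 1 (199). Of the 289, 137 were raised with each of the 9 left out, and of the 19 lower, 5. For *rst1-2* the counts of raised genes were 154 to 242 with 1 library left out (fewest without wild-type replicate 2), 108 with glmTreat and 402 at 0.05, and for *rst1-3* 141 to 229 (fewest without its replicate 2), 99 and 382. The alleles differed at 4 to 8 genes with 1 library left out (4 without *rst1-3* replicate 2), at 14 without a filter, 5 with the mean count filter and 2 with glmTreat.

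Without robust moderation, an alternative added after the data were seen, 290 genes were raised, 283 of them in common, the alleles differed at 6 genes and *CER3* had an adjusted p of 4.08e-11. Also chosen after the data were seen, leaving out 3 repeat-like miRNAs took the genes not called with a site from 183 to 76. No named gene called in *rst1* changed direction in these settings, and of those not called *MLO9* (−0.11, up to 0.67) and *AT3G44510* (−0.43, and 0.53 with *rst1-2* alone) changed sign. With the replicate number as a block, 310 genes were raised and 21 lower, with 252 raised in *rst1-2*, 228 in *rst1-3* and 9 that differed. Same-numbered libraries of different genotypes had correlations of their deviations from −0.03 to 0.11, and those with different numbers from −0.11 to 0.06. The same-numbered values lay somewhat higher, and most were below 0.1. The numbers were not taken as pairs in the main fit, whose written design held no covariate. Depth limits the low genes, as 59 of the raised genes had only 1 to 3 counts over the wild type.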

Other observations

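Groups that no list covered were looked up by annotation after the results were seen, so they are descriptions without a test of the group. Of 5 tested metallothioneins, small cysteine-rich metal-binding proteins, 4 were raised, with a median log2 fold change of 3.78 over the 5 (9.91% of all tested genes were raised). *MT2B* had 15, 10 and 10 counts in the wild type, 186, 215 and 196 in *rst1-2*, and 107, 206 and 197 in *rst1-3* (3.78, SE 0.34, adjusted p = 1.48e-09 by edgeR). Its neighbour *AT5G02370* is raised too and has like counts, so the reads may belong to either. *MT1A*, which overlaps another raised gene, went from 0 to 2 counts to 52 to 116 (5.52, SE 0.52), *MT3* rose by 2.57 (SE 0.32), and *MT1C* was at 0 in the wild type. Among these, *MT2B*, *MT3* and *MT1A* were raised with any library left out, and *MT1C* was not.

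Both tested genes with a DWNN domain were raised, *AT4G17410* from 10, 12 and 10 counts to 156 to 336 (4.41, SE 0.26, adjusted p = 2.58e-14) and *AT5G47430* from 15 to 22 counts to 186 to 456 (3.78, SE 0.28). Of 3 tested genes annotated to pre-mRNA cleavage complex II, *AT1G66500* (5.07, SE 0.91) and *AT5G43620* (4.08, SE 0.72) were raised, with 1 and 2 counts summed over the wild type. Of 6 tested purple acid phosphatases, 3 were raised, *PAP6*, *PAP14* and *PAP25*, the last not without wild-type replicate 1 (adjusted p = 0.0235) or 3 (0.0283). *AGL16*, a MADS-box gene with a miR824 site, rose from 1 to 3 counts to 9 to 21 (2.62, SE 0.46, adjusted p = 8.29e-05). In the other groups looked up, 2 of 9 genes with a C1 domain, 3 of 27 of RING or U-box type, 2 of 16 F-box associated ubiquitination effectors, 2 of 7 GRAS genes and 2 of 6 with a CCCH zinc finger were raised, with medians from −0.29 to 1.27. Of the 289 raised genes, 217 were in none of the lists.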
